A study of Mus musculus with 7 samples.

Results

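The Ly6 genes of mouse chromosome 15 form a cluster of related genes, and 10 of them are described here: BC025446, Ly6a, Ly6c1, Ly6c2, Ly6d, Ly6e, Ly6h, Ly6k, Lynx1 and Psca. The cluster was chosen on measured values, the CPM difference of BC025446 between the groups, and its members by family and position. All 10 were matched by symbol among the 54446 genes of the count table. They span 74714839 to 75567255 of chromosome 15 (GRCm38). Poly-A RNA was sequenced from pancreatic spheroids, which are 3-dimensional cultures of pancreatic epithelial cells, grown from wild-type C57BL/6J mice. The 3 untreated libraries came from mice without treatment, and the 4 post-caerulein libraries from mice that had received caerulein, a peptide that overstimulates acinar cells and is used to induce pancreatitis. All 7 cultures shared a medium with EGF, hydrocortisone, cholera toxin and bovine pituitary extract. Neither the age of the mice nor the time since caerulein is given in the sources used. Nothing in the labels says whether replicates came from separate animals, so p-values measure only the spread between these samples, which may be technical.

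Ly6 proteins are small proteins with a three-finger fold that disulphide bonds between cysteines hold together, and most are held on the cell surface by a GPI anchor. Ly6a, known as Sca-1, is used to mark stem and progenitor cells, and Ly6c marks monocytes and some endothelial cells. Interferon is known to raise Ly6a, Ly6c and Ly6e. Ly6d is found on squamous and urothelial cells, Psca on prostate, bladder and stomach epithelium, and Lynx1 and Ly6h act on nicotinic acetylcholine receptors.

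Because of that choice, the members' group differences are given as a description. Where members called in the fits across all genes are counted, the counts are no test of the members, since BC025446 was picked on the same values. Total counts ranged from 34783738 to 46744497 per library, at which 3 counts equal 0.0631 to 0.0841 CPM, the read count scaled to library size. Library sizes were adjusted by the trimmed mean of M values (TMM), and levels were compared between genes only as CPM per kb of exon. Untreated 03 and post-caerulein 04 stood apart from the other 5 libraries, and a fit with these 2 as a block is given beside the fit on group alone. The block was taken up because earlier work on these counts had obtained the authors' deposited table with it, and no label says what it stands for. The 2 libraries are called the smaller block, and the other 5 the larger block. Untreated 01 and 02 were alike, as were post-caerulein 02 and 03. Of the 8 epithelial marker genes, such as the keratin gene Krt8, all were detected, with a summed level of 14789 to 16195 CPM in the untreated and 14556 to 22364 CPM in post-caerulein libraries.

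The cluster arose from copies of an ancestral gene, and the members that the results turn on are still alike in sequence. The coding sequences of BC025446 and Ly6a, from GENCODE on GRCm38, aligned without a gap and were identical at 343 of 405 bases (84.7%). Those of Ly6c1 and Ly6c2 were identical at 387 of 396 (97.7%), the highest of any pair. The first 300 bases of each, from the start codon, are shown because the genes of each pair had different values in the cultures. Within these, 52 bases differ in the first pair and 7 in the second. Capitals mark the bases that differ within a pair.
BC025446: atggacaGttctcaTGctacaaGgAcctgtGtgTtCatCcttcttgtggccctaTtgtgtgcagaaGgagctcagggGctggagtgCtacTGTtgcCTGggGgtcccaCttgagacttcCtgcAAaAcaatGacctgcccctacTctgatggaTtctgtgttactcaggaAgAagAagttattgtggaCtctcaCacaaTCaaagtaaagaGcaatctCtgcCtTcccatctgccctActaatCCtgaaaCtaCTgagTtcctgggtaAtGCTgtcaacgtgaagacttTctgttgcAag
Ly6a: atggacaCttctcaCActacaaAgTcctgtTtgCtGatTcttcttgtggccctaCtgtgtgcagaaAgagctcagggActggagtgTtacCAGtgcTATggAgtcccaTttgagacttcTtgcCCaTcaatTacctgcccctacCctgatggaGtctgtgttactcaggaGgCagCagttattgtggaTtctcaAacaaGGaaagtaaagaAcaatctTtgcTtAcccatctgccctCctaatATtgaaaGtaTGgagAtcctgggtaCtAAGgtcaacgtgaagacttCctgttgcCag
Ly6c1: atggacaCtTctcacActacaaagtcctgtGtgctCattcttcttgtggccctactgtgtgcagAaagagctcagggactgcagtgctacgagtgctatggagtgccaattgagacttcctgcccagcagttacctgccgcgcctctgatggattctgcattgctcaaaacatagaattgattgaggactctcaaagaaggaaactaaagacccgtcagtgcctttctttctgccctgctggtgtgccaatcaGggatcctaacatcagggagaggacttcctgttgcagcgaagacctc
Ly6c2: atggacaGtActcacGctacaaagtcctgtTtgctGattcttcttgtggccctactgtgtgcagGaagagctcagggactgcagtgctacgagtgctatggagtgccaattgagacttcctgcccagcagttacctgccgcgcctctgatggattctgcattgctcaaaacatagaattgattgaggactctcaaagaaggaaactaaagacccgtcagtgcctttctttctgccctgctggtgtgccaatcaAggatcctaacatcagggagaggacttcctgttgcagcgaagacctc
BC025446 lies on the plus strand (coding bases from 75216685 to 75220838) and the other 3 on the minus strand (Ly6a 74995262 to 74997604, Ly6c1 75045402 to 75048511, Ly6c2 75108543 to 75111667). BC025446 encodes 13 cysteines and Ly6a, Ly6c1 and Ly6c2 encode 12 each, while the 10 members ranged from 10 to 13. These likenesses bear on the counts. No 50-base stretch of BC025446, Ly6d, Ly6e, Lynx1 or Psca transcripts occurred in a transcript of another gene. In Ly6a 19.0% of such stretches were shared, most with Ly6c1, and in Ly6c1 32.8% were, most with Ly6c2. Reads of Ly6a, Ly6c1 and Ly6c2 that fall in those stretches could have been split or dropped in counting, so their levels are uncertain to that extent.

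Per kb of exon, Ly6e, Ly6a and Ly6d were far above the other members. Averaged over the 7 libraries, Ly6e stood at 788, Ly6a at 725 and Ly6d at 507 CPM per kb, followed by Psca at 49.4, Lynx1 at 30.2, Ly6c1 at 25.2 and BC025446 at 8.67. Ly6k (0.531), Ly6c2 (0.0685) and Ly6h (0.00453) were near the limit of detection. Neighbours in this order overlapped over the 7 libraries, except at 3 steps. The lowest Ly6d value (206) lay above the highest of Psca (110), the lowest of BC025446 (2.26) above the highest of Ly6k (1.67), and the lowest of Ly6k (0.153) above the highest of Ly6c2 (0.129). The share that each gene took of the cluster's summed CPM per kb changed with the library. Ly6a took 49.5% and 50.1% in untreated 01 and 02 but 17.6% in untreated 03, and 12.7% in post-caerulein 04.

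**Figure D1:**
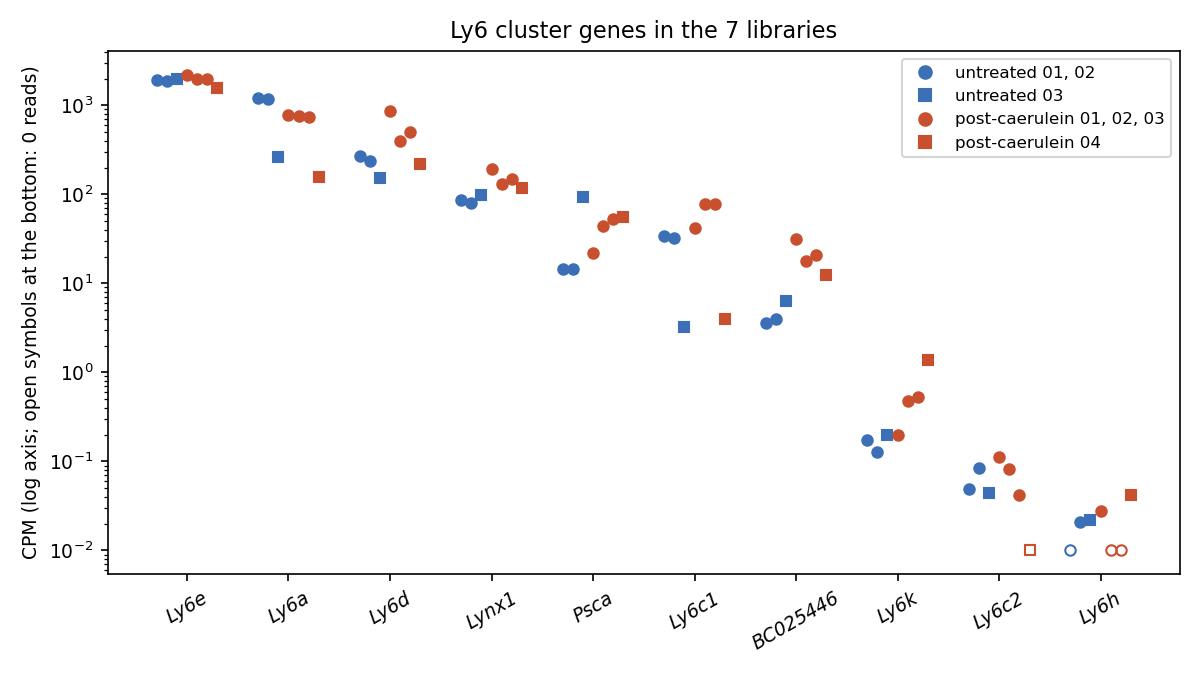
CPM of the 10 members in each library (log axis; open symbols, 0 reads), ordered by CPM, with untreated libraries in blue, post-caerulein libraries in red, and squares for untreated 03 and post-caerulein 04. BC025446 is higher in all 4 post-caerulein libraries (12.6 to 31.2) than in the untreated ones (3.59 to 6.34), while Ly6a and Ly6c1 are lowest in the 2 libraries drawn as squares.

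**Figure D2:**
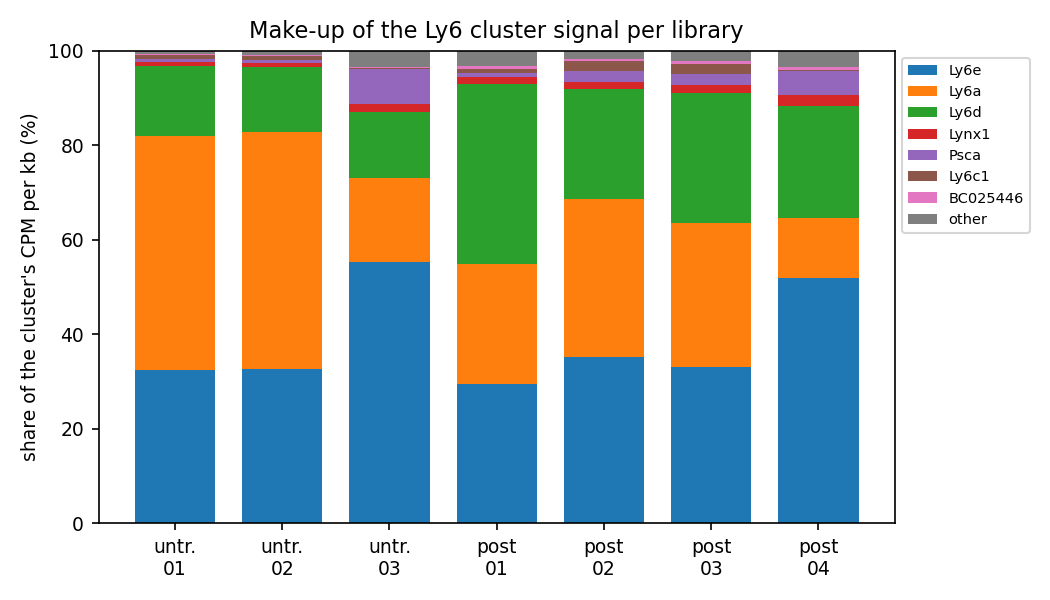
Share (%) of each gene in the summed CPM per kb of the 10 members and 14 other family genes of the cluster, per library. Ly6a takes about equal parts in untreated 01 and 02 (49.5% and 50.1%) and its smallest in post-caerulein 04 (12.7%), and Ly6d its largest in post-caerulein 01 (38.0%).

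BC025446, which RefSeq calls Ly6g2 and on whose difference the cluster was chosen, had the largest log2 difference between the groups of the 8 tested members. It stood at 3.59, 3.96 and 6.34 CPM in untreated 01, 02 and 03, and at 31.2, 17.6, 21.0 and 12.6 CPM in post-caerulein 01 to 04. Every post-caerulein library lay above every untreated one. The means were 4.63 ± 1.49 CPM (SD, n = 3) and 20.6 ± 7.89 CPM (SD, n = 4), a ratio of 4.45. The log2 difference was 2.13 ± 0.38 (SE) with the block and 2.15 ± 0.36 without it. Within the larger block the ratio of means was 6.17, against 1.98 between post-caerulein 04 and untreated 03, so the direction was the same on both sides of the block.

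The tested family genes that follow BC025446 along the cluster were also higher in post-caerulein libraries, at lower levels. Ly6f, a Ly6 gene 45.8 kb further along the chromosome whose coding sequence is 83.2% identical to that of BC025446, stood at 0.396, 0.316 and 0.311 CPM in the untreated libraries. It was at 4.40, 2.33, 3.58 and 0.462 CPM in post-caerulein 01 to 04, all above the untreated values, though post-caerulein 04 only narrowly. The pseudogene 9030619P08Rik, the next tested family gene after Ly6f, was at 0.272, 0.105 and 0.934 CPM in the untreated and at 8.64, 5.86, 10.8 and 1.49 CPM in post-caerulein libraries. The pseudogene passed the filter on low counts only through post-caerulein libraries, with 11, 5 and 42 reads in untreated 01 to 03, so its difference is no independent sign of a change. Neither gene passed the test over all genes with the block: the log2 difference was 2.56 ± 0.58 (SE; adjusted p = 0.0793) for Ly6f and 3.87 ± 1.05 (adjusted p = 0.118) for 9030619P08Rik by edgeR's quasi-likelihood test. Sharing of reads between these genes was small, with 0 of 829 stretches of 50 bases in Ly6f transcripts and 4 of 1030 in those of 9030619P08Rik found in another gene.

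By the measure fixed for likeness, the root-mean-square difference of log2 CPM centred on each gene's mean over the 7 libraries, the genes with the pattern most like BC025446 were Fgfr3 (0.19), Tspan33 (0.28), Pear1 (0.28), Dpp4 (0.30) and Fgf1 (0.32). The median over the 10986 genes compared was 1.17. Fgfr3, a receptor for fibroblast growth factors, stood at 0.619, 0.801 and 1.60 CPM in the untreated and 6.51, 4.36, 5.41 and 2.73 CPM in post-caerulein libraries. Fgf1, a ligand of the same family, stood at 1.14, 1.05 and 1.69 CPM and at 15.6, 4.94, 5.16 and 3.55 CPM. Both were highest in post-caerulein 01, as BC025446 was. These genes were picked for their likeness out of all those compared, so the likeness only describes these 7 libraries.

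Ly6a, although the closest to BC025446 in coding sequence of the other 9 members, was lower in post-caerulein libraries within each block. It stood at 1218, 1170 and 260 CPM in untreated 01 to 03 and at 781, 760, 749 and 159 CPM in post-caerulein 01 to 04. The groups overlapped because the 2 libraries of the smaller block were low, whichever group they belonged to. Within the larger block the ratio of post-caerulein to untreated was 0.639, and between post-caerulein 04 and untreated 03 it was 0.610. With the block the log2 difference was -0.67 ± 0.09 (SE), and without it -0.53 ± 0.64. The difference between the blocks was the larger one, at -2.17 on the log2 scale, larger in size than that of 97.0% of the genes tested. In bulk RNA, fewer cells with Ly6a and less Ly6a RNA per cell cannot be told apart.

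Ly6c1 split the libraries in the same way, but its group difference pointed the other way. It stood at 34.1, 32.3 and 3.20 CPM in the untreated and at 41.6, 78.8, 78.9 and 3.99 CPM in post-caerulein libraries. The 2 libraries of the smaller block were thus far below the rest, with a difference of -3.78 on the log2 scale, larger in size than that of 99.6% of the genes tested. The post-caerulein to untreated ratio was 2.00 in the larger block and 1.25 in the smaller, and the log2 difference with the block was 0.82 ± 0.26 (SE). Ly6c2, the near-identical gene 59.3 kb away, had 8 reads in all untreated and 9 in all post-caerulein libraries, against 3056 and 8261 for Ly6c1, and was too low to test. Of the leukocyte genes, Ptprc (CD45) stayed at or under 0.105 CPM and Tyrobp, a signalling adaptor of myeloid cells, at or under 0.0211 CPM. Lyz2 reached 0.337 CPM, in post-caerulein 03. Csf1r stood at 0.421, 0.675 and 0.623 CPM in the untreated and 0.925, 0.999, 0.969 and 1.20 CPM in post-caerulein libraries. Its log2 difference with the block was 0.85 ± 0.26 (SE), against -0.49 ± 0.53 for Cd68, the other leukocyte gene tested. The part of leukocytes in the Ly6c1 values was not tested.

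Upstream of the start sites Ly6c1 and Ly6c2 differed more than in their coding sequence. Whether these differences bear on the unequal counts of the pair was not tested. The 250 bases before each start site are shown from RefSeq (GRCm38.p6), minus strand, and capitals mark bases without an identical partner in the alignment.
Ly6c1, chr15:75048838-75049087: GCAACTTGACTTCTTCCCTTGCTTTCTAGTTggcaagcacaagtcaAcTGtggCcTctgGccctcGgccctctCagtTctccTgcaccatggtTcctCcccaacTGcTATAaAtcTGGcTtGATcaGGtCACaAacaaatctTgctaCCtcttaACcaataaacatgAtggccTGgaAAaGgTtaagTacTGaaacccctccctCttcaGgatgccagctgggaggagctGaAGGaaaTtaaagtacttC
Ly6c2, chr15:75111972-75112221: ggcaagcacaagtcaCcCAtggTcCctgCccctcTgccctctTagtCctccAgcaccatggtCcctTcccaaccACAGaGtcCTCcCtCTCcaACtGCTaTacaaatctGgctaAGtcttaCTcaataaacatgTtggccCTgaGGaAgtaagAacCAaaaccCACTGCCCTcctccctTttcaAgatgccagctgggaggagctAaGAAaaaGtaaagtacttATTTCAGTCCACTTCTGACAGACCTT
Of the 228 aligned columns 164 were identical (71.9%), against 97.7% of the coding bases. Neither window held a core of the interferon-stimulated response element searched as GAAANNGAA on both strands, which 7.13% of the 32851 promoter windows of this length hold, nor the gamma-activated site TTCNNNGAA, which 7.02% hold. The promoter table held 2 of the 10 members.

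Since Ly6a, Ly6c and Ly6e respond to interferon, their values are set beside 36 interferon-stimulated genes. With the block 2 of the 36 fell and 0 rose, against 0.876% and 0.651% of all 16438 genes tested. The 2 were the antiviral genes Rsad2, which fell by 2.50 (SE 0.32; adjusted p = 0.0233, edgeR quasi-likelihood), and Oas3, which fell by 1.91 (SE 0.34; adjusted p = 0.0483). The median of the list was -0.97 on the log2 scale, against -0.00 over all genes. The list's summed level was 2278, 2195 and 472 CPM in the untreated and 816, 1115, 846 and 418 CPM in post-caerulein libraries, with untreated 01 and 02 highest and untreated 03 and post-caerulein 04 lowest, as for Ly6a. In 31 of the 36 genes untreated 03 and post-caerulein 04 were the 2 lowest libraries, which was so for 18.2% of all genes tested and for 3 of the 8 tested members, Ly6a, Ly6c1 and Ly6d. Ly6e, whose values are given below, did not have that order. Bst2, which encodes the virus-tethering protein tetherin, was the most abundant of the list per kb, at 78.8 ± 23.2 CPM (SD, n = 3) and 43.3 ± 7.75 CPM (SD, n = 4), and its groups overlapped. The receptor chains for interferon gave 0 calls among 6 with the block by edgeR's quasi-likelihood method, where 1.53% of all genes tested were called. Ifngr1 was the most abundant, at 217 ± 19.3 CPM (SD, n = 3) and 292 ± 71.9 CPM (SD, n = 4). Ifnlr1 stood at 51.7, 58.9 and 50.3 CPM in the untreated and 43.5, 42.8, 43.6 and 34.8 CPM in post-caerulein libraries. Its groups did not overlap, with post-caerulein lower, as in 4.65% of all genes tested. Of the 6 chains 3 had positive log2 differences with the block. The part of interferon signalling in the values of Ly6a was not tested.

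**Figure D3:**
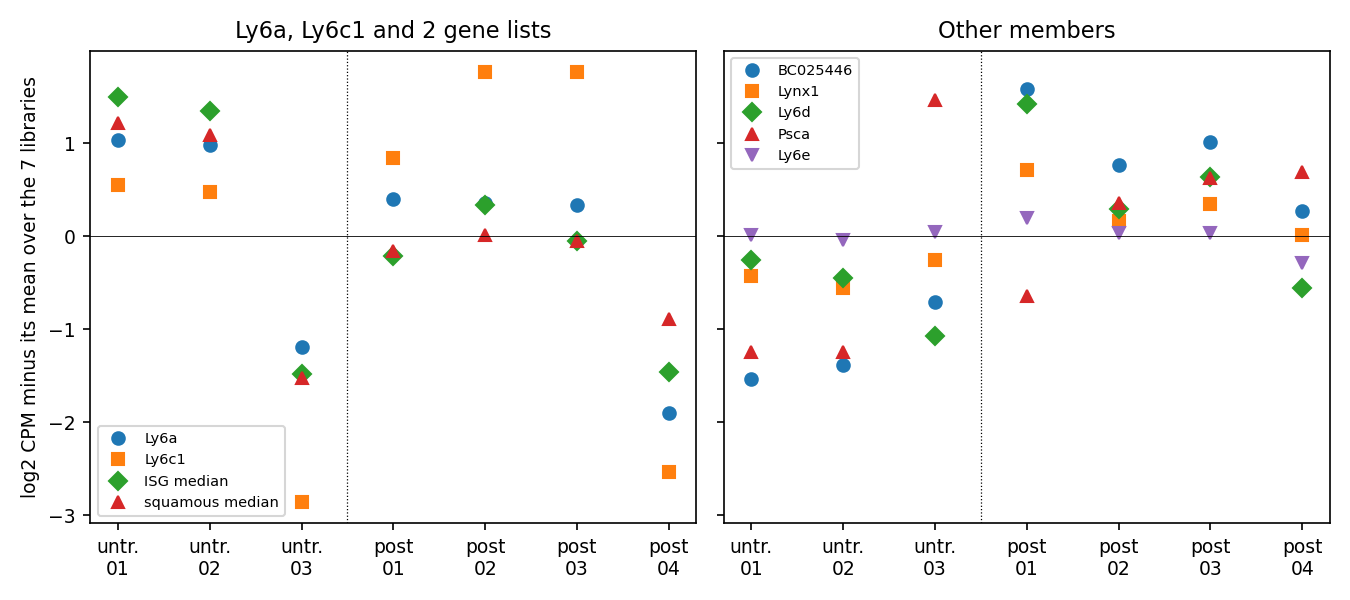
Log2 CPM of 7 members, less each gene's mean over the 7 libraries, with the medians of 36 interferon-stimulated genes (ISG) and of 6 squamous marker genes at left; the dotted line parts the untreated from the post-caerulein libraries. At left, all 4 series are lowest in untreated 03 and post-caerulein 04, with Ly6c1 at -2.86 and -2.54 there; at right, Psca is highest in untreated 03 (1.46) and Ly6e stays within -0.28 and 0.20.

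The genes with a pattern most like Ly6a by the same measure were Hnf1aos1 (0.22), Il1f9 (0.25), Ddit4 (0.26), Trim29 (0.27) and Rhov (0.28), with a median of 1.05 over 10985 genes. Ddit4, a stress-induced inhibitor of mTOR signalling, stood at 560, 531 and 148 CPM in the untreated and 257, 278, 261 and 72.4 CPM in post-caerulein libraries. Like Ly6a it was highest in untreated 01 and 02 and lowest in post-caerulein 04.

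Ly6d and Psca, both surface proteins of differentiated epithelia, differed between groups in the larger block but parted ways in untreated 03. Ly6d stood at 271, 236 and 153 CPM in untreated 01 to 03 and at 865, 395, 501 and 219 CPM in post-caerulein 01 to 04. Only post-caerulein 04 fell within the untreated range. Its means were 220 ± 60.4 CPM (SD, n = 3) and 495 ± 273 CPM (SD, n = 4), and the log2 difference was 1.01 ± 0.29 (SE) with the block. Post-caerulein libraries were higher on both sides of the block, by ratios of 2.32 and 1.43.

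Psca stood at 14.5, 14.5 and 94.4 CPM in untreated 01 to 03 and at 22.0, 44.1, 52.8 and 55.5 CPM in post-caerulein 01 to 04. Untreated 03 was therefore the highest library of all, 6.53 times the mean of untreated 01 and 02. The direction of the group difference turned between the blocks, with a ratio of 2.74 in the larger block and 0.588 in the smaller. Over all libraries the means were 41.1 ± 46.1 CPM (SD, n = 3) and 43.6 ± 15.2 CPM (SD, n = 4), a log2 difference of 0.09 ± 0.69 (SE) without the block and 0.80 ± 0.50 with it.

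Markers of squamous cells, on which Ly6d is known, are given beside these values. The 9 squamous genes, among them the keratin gene Krt13, summed to 270, 239 and 41.9 CPM in the untreated and 120, 121, 149 and 65.5 CPM in post-caerulein libraries. The squamous sum was highest in untreated 01 and 02, where Ly6d was below its level in post-caerulein 01 to 03. Not every gene followed the sum. Of the 6 tested, 2 had positive log2 differences with the block, Krt5 (1.17 ± 0.46, SE) and Sprr1a (0.26 ± 0.13). Krt5 stood at 0.817, 0.464 and 0.156 CPM in the untreated and 0.729, 2.22, 1.66 and 0.273 CPM in post-caerulein libraries, lowest in the smaller block as Ly6d was. With the block 1 of the 6 tested genes fell and 0 rose, against 0.876% and 0.651% of all genes tested. Krt13 fell by 5.54 (SE 0.53, adjusted p = 0.0159, edgeR quasi-likelihood), with untreated values of 36.6, 28.6 and 0.289 CPM and at most 0.982 CPM after caerulein. Trp63, the transcription factor gene that defines basal squamous cells, had 0 CPM in every library. Gastric pit and mucous genes, which share the stomach with Psca, summed to 69.1, 64.6 and 9.32 CPM in the untreated and 28.2, 12.5, 19.5 and 56.4 CPM in post-caerulein libraries. Muc5ac, a mucin gene of pit cells, made up most of the sum in untreated 01 and 02 (66.8 and 61.9 CPM) and in post-caerulein 04 (33.9 CPM), but not in the other 4 libraries. With the block 3 of the 5 tested genes rose and 0 fell, against 0.651% and 0.876% of all genes tested: the trefoil genes Tff1 and Tff2 and the claudin gene Cldn18, by 3.37, 4.33 and 1.37 on the log2 scale. Tff2, at or under 0.149 CPM in the untreated libraries, passed the filter only through post-caerulein ones. Their part in the values of Ly6d and Psca was not tested.

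Lynx1, which encodes a brake on nicotinic acetylcholine receptors, was the other member whose groups did not overlap. It stood at 86.4, 79.5 and 97.9 CPM in the untreated and at 192, 130, 149 and 117 CPM in post-caerulein libraries. Its lowest post-caerulein value thus lay above its highest untreated one, with means of 87.9 ± 9.31 CPM (SD, n = 3) and 147 ± 32.4 CPM (SD, n = 4). The log2 difference was 0.72 ± 0.18 (SE) with the block and 0.74 ± 0.18 without it, and its difference between the blocks was small, at -0.17 on the log2 scale. That of Ly6e was -0.16. These are differences of plain means over libraries, in which the groups are not equally represented, so members with small values are not ranked by them. Of the 16 nicotinic receptor subunit genes only 4 were high enough to test. With the block 0 of these were called (edgeR quasi-likelihood), where 1.53% of all genes tested were. Chrnb1 was the most abundant of the 16, at 47.0 ± 8.55 CPM (SD, n = 3) and 47.7 ± 4.98 CPM (SD, n = 4). Among those too low to test, Chrna4 stood at 1.29, 0.844 and 0.178 CPM in the untreated and 0.0280, 0.0555, 0.105 and 0.0841 CPM in post-caerulein libraries. Chrna1 went the other way, at 0 to 0.0445 CPM and 0.0555 to 0.140 CPM. Their part in the Lynx1 values was not tested. Ly6h, the other member known to act on these receptors, had 5 reads in all, 2 in untreated and 3 in post-caerulein libraries, which is at the limit of detection.

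Ly6e, the receptor for the placental fusion protein syncytin-A, had the highest level per kb of the members averaged over the 7 libraries, and the smallest group difference of the 8 tested. Ly6a was above it per kb in untreated 01 and 02, and Ly6d in post-caerulein 01. It stood at 1949, 1871 and 1999 CPM in the untreated and at 2218, 1971, 1982 and 1586 CPM in post-caerulein libraries. The groups overlapped, and their means were 1940 ± 64.8 CPM (SD, n = 3) and 1939 ± 262 CPM (SD, n = 4). The log2 difference was -0.02 ± 0.13 (SE) with the block. The genes most like it in pattern were Ubac2, Las1l, Ndufb11, Erp44 and Bag4, at distances of 0.03 to 0.05 against a median of 0.26, which describes genes that vary little.

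Ly6k, a gene known mainly from the testis, was low but present. It had 7, 6 and 9 reads in untreated and 7, 17, 25 and 66 reads in post-caerulein libraries. Post-caerulein 01 lay within the untreated range and the other 3 above it. Ly6k passed the filter on low counts only through post-caerulein libraries, so its log2 difference of 1.91 ± 0.49 (SE) with the block is no independent sign of a change. Ly6k lies within the antisense gene Gm17189, with which it shares 32.7% of its 50-base stretches. As the strand setting of the counting is not known, reads in those stretches cannot be assigned to 1 of the 2 genes. Gm17189 had 218, 204 and 448 reads in untreated and 94, 269, 312 and 270 reads in post-caerulein libraries. Its part in the Ly6k values was not tested.

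Of the 10 members 8 passed the filter and 2, Ly6c2 and Ly6h, did not. In the fit on group alone 0 members were called (percent called over all 16438 genes: 0%), with 0 genes called, the smallest adjusted p being 0.0997 in edgeR's quasi-likelihood fit, and 1561 genes at an unadjusted p under 0.05. DESeq2 called 509 genes in that comparison, BC025446 and Lynx1 among them, and limma-voom 0. With the block 2 members were called, BC025446 higher and Ly6a lower, where 1.53% of all genes were. The groups did not overlap for 2 members, BC025446 and Lynx1, and for 9.32% of all genes tested. In both members the post-caerulein libraries were the higher, as in 4.67% of all genes, and in 0 members the lower, as in 4.65%. Of the 8 tested members 6 had differences of the same sign on both sides of the block (all but Psca and Ly6e), against 50.2% of all genes. As the members were chosen with this contrast known, nothing is read from these counts. The call of BC025446 was lost with DESeq2's size factors in edgeR, with no filter or a stricter one and without any one of untreated 01, untreated 02 or post-caerulein 01, 02 and 03, while its log2 difference stayed between 1.88 and 2.64. That of Ly6a was lost without untreated 01 or 02 and without post-caerulein 02 or 03, at -0.69 to -0.66. It was also lost with the replicate number as a further block, at -0.63, where only untreated 01 and 02 and post-caerulein 01 and 02 compare the groups. Both calls were lost with each pair of like libraries summed.

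The authors' deposited table lists 7 of the 10 members and has 5 of them at a false discovery rate under 0.05, where 7.88% of all its genes are. The authors' deposited table has 4 of these higher, where 4.49% of its genes are, and 1 lower, where 3.39% are. In the authors' deposited table BC025446 has a log2 fold change of 2.15, Ly6d of 1.02, Ly6c1 of 0.83, Lynx1 of 0.74 and Ly6a of -0.65, while Psca (0.83) and Ly6e (-0.01) are above that rate. That table comes from a likelihood ratio test, which calls more genes on these counts than the quasi-likelihood test does.

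Of the 65 genes within 250 kb of the members' interval 28 were tested, and 14 had no read in any library. With the block 2 were called, both members, where 1.53% of all genes tested were. Of the 14 other Ly6 family genes in and near the interval 9 were tested and 0 were called with the block. Apart from Ly6f and 9030619P08Rik they included Gml2, at 1.12 ± 0.74 CPM (SD, n = 3) and 2.94 ± 0.64 CPM (SD, n = 4), whose groups did not overlap (log2 difference 1.61 ± 0.34, adjusted p = 0.0661 with the block, edgeR quasi-likelihood). Gml2 shares 30.8% of its 50-base stretches with other genes. The most abundant was 2010109I03Rik, which RefSeq calls Ly6m, at 27.3, 33.8 and 81.1 CPM in the untreated and 146, 43.3, 57.0 and 57.8 CPM in post-caerulein libraries. Its groups overlapped. The genes that flank the cluster beyond Ly6h, from Zfp41 to Zc3h3, had log2 differences between -0.61 and 0.33 with the block. On the other side, before Psca, Jrk was at 0.54 and Arc, an immediate early gene, at -1.90 (SE 0.43; adjusted p = 0.0810, edgeR quasi-likelihood).

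**Figure D4:**
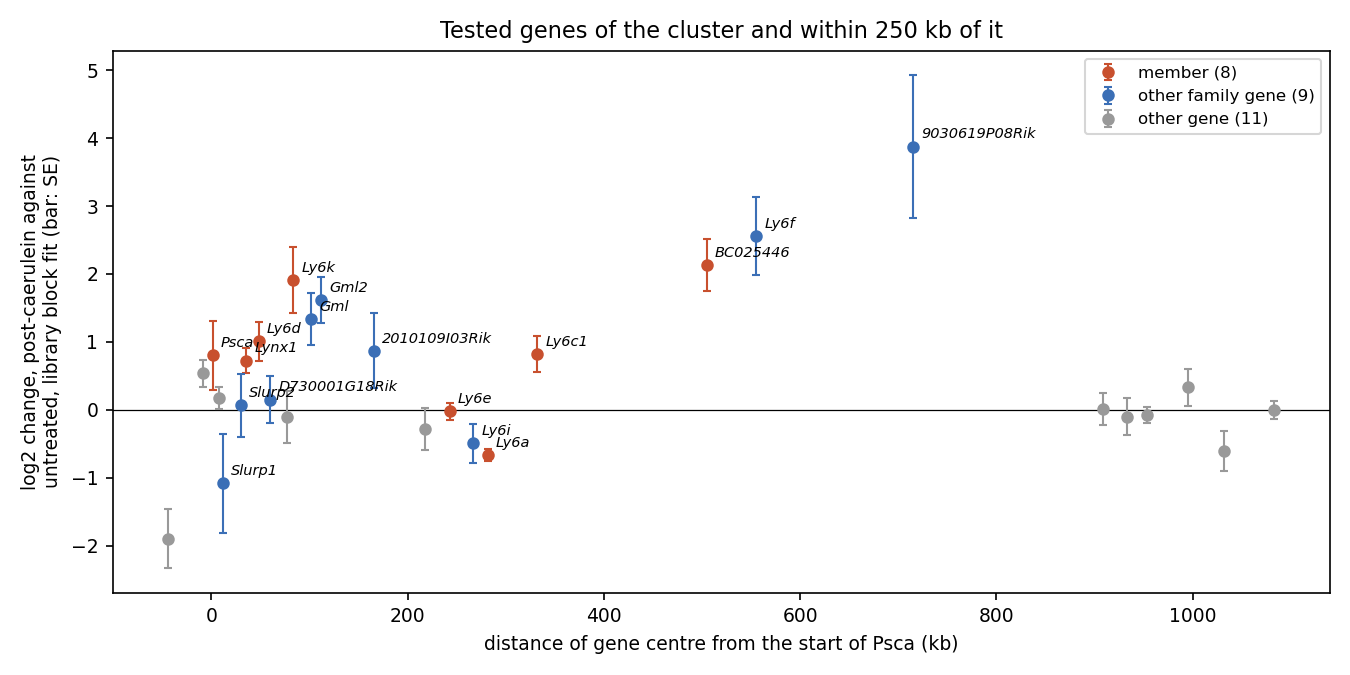
Log2 difference between post-caerulein and untreated libraries in the fit with the block (points, bars are SE) against the distance of each tested gene from the start of Psca, for 8 members, 9 other family genes and 11 other genes. The 3 genes from BC025446 to 9030619P08Rik lie at 2.13 to 3.87, while Ly6e lies at -0.02 and Ly6a at -0.67.

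Genes of the same protein fold elsewhere in the genome mostly did not pass the test. Of 25 such genes 23 were matched by symbol and 14 were tested. With the block 1 rose and 0 fell, against 0.651% and 0.876% of all genes tested, and their median log2 difference was 0.01. The one that rose was Lypd8, which encodes a surface protein of the colon that keeps bacteria away from the epithelium, with a log2 difference of 1.68 (SE 0.19; adjusted p = 0.0222, quasi-likelihood fit in edgeR). It stood at 5.35, 6.01 and 0.712 CPM in the untreated and at 22.1, 16.1, 21.5 and 1.74 CPM in post-caerulein libraries, and like Ly6c1 it was lowest in the 2 libraries of the smaller block. Plaur, the urokinase receptor gene, was the most abundant, at 227 ± 31.8 CPM (SD, n = 3) and 335 ± 110 CPM (SD, n = 4), and did not pass (adjusted p = 0.292, edgeR quasi-likelihood).

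Genes of the GPI anchor, which most members need, did not pass the test. Of 32 genes for the anchor's synthesis, transfer and remodelling 31 were matched by symbol and 30 were tested. With the block 0 were called (edgeR's quasi-likelihood test), where 1.53% of all genes tested were, and the median log2 difference was 0.04. Pigt, of the complex that attaches the anchor, was the most abundant per kb, at 146 ± 10.4 CPM (SD, n = 3) and 149 ± 24.6 CPM (SD, n = 4). Pgap1, the gene of the list with the most reads, encodes an enzyme that trims the anchor's inositol and stood at 540, 483 and 116 CPM in the untreated and 295, 242, 266 and 114 CPM in post-caerulein libraries. Its order of libraries resembled that of Ly6a, highest in untreated 01 and 02 and lowest in the smaller block, and its log2 difference with the block was -0.68 ± 0.18 (SE; adjusted p = 0.113, edgeR quasi-likelihood).

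Markers of other cells of the pancreas and of cells that carry Ly6 proteins are given for the same libraries. The 8 acinar genes summed to 0.619 to 0.696 CPM in the untreated and 1.75 to 11.8 CPM in the post-caerulein libraries, which did not overlap. Of the 2 acinar genes tested 1 rose and 0 fell with the block, against 0.651% and 0.876% of all genes tested. The one that rose was the chymotrypsinogen gene Ctrb1, at 0.0495, 0.0422 and 0.222 CPM and at 7.32, 0.971, 2.23 and 7.15 CPM (log2 difference 5.59, SE 0.89, adjusted p = 0.0378, quasi-likelihood fit in edgeR). Ctrb1 too passed the filter only through post-caerulein libraries. Amy2a5, a pancreatic amylase gene, had 0 reads, and whether it shares reads with other genes was not examined. The 7 islet genes summed to 0.0248 to 0.400 CPM and 0.462 to 4.51 CPM, with Ins1 and Ins2 at 0 in the untreated libraries. These groups did not overlap, but only narrowly, between untreated 03 (0.400) and post-caerulein 04 (0.462). Of the 2 tested, Iapp and Chga, 0 were called. Both passed the filter only through post-caerulein libraries, at or under 0.0445 and 0.289 CPM in the untreated. The acinar and islet sums were higher in post-caerulein libraries, as BC025446 and Lynx1 were, and their part in the members' values was not tested. The 7 endothelial genes summed to 1.36 to 2.83 CPM in the untreated and 0.449 to 1.43 CPM in post-caerulein libraries. Cdh5, which defines endothelium, reached at most 0.294 CPM, in post-caerulein 04, where Ly6a and Ly6c1 were low. Vwf stood at 1.88, 2.45 and 0.779 CPM in the untreated and 0.280, 0.527, 0.695 and 0.526 CPM in post-caerulein libraries, highest in untreated 01 and 02 as Ly6a was. With the block its log2 difference was -1.67 ± 0.41 (SE), against 0.95 ± 0.58 for Pecam1, the other endothelial gene tested. The 8 fibroblast genes summed to 0.127 to 21.2 CPM in the untreated and 2.97 to 7.30 CPM in post-caerulein libraries. They were highest in untreated 03, which also had low Ly6a and Ly6c1. The part of endothelial cells and fibroblasts in the values of Ly6a and Ly6c1 was not tested. The 9 leukocyte genes summed to 21.4 to 98.8 CPM and 12.8 to 36.4 CPM, nearly all of it Cd68, a lysosomal gene that epithelial cells also express. Neuron and Schwann cell genes, of the tissue in which Lynx1 and Ly6h are best known, summed to 2.87 to 3.87 CPM in the untreated and 4.62 to 10.4 CPM in post-caerulein libraries, and their part in the Lynx1 values was not tested.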

How the data were processed

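Raw counts of reads per gene were deposited by the authors for 7 libraries, with gene coordinates and exon lengths in bases (other values, per the file headers). The submitters' processing notes name featureCounts (version 0.6.1), edgeR (3.2.2) and GRCm38, also called mm10. No source used here gives the aligner or the strand setting. Per the file headers, the authors' deposited comparison holds a log2 fold change, a mean log2 CPM, a likelihood ratio score and a p-value with its false discovery rate for each gene.

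Groups came from the sample titles. Of 54446 genes, 54409 had a symbol. Counts were filtered (filterByExpr, minimum count 10, minimum total 15), scaled by TMM and tested two-sided with edgeR 4.0.16's quasi-likelihood test (robust), with p-values adjusted over all 16438 kept genes by Benjamini-Hochberg, at a threshold of 0.05. One fit had the group alone and a second the library block as well. Differences within a block used log2 CPM with a pseudocount of 0.5. The difference between the blocks was the mean of these values over the smaller block less that over the larger, without weighting the groups. The fitting procedure was also run on simulated counts as a check of the code, and no result here rests on that run.

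The members and lists were chosen with earlier results of these data known. All members are described; called genes of each list and some of its most abundant ones are named, as are the 5 genes most like BC025446, Ly6e and Ly6a in pattern, with an average log2 CPM of at least 1. Of the other family genes, 2 (D730001G18Rik and I830127L07Rik) were added from RefSeq names after the data were seen. The spans of 9 of 10 members were the same in the GENCODE annotation used for sequences and in the count table. Alternatives were other scalings, filters and tests (DESeq2 1.42.0, limma 3.58.1), left-out libraries, the replicate number as a block, the larger block alone and summed pairs. Analyses ran in R 4.3.3 and Biopython 1.88, with figures in matplotlib 3.10.9.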

Additional observations from a re-analysis of the deposited data

Results flagged for a closer look

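In 3 of the 17 Ly6 family genes examined, 1 post-caerulein library stood far from the other 3, by its gap to the nearest library as a share of the range. For normally spread values chance alone flags about 1 in 20 such groups. The genes share the same libraries, and the share of all genes flagged by this rule was not computed, so nothing is read from the count. Ly6a was at 159 CPM in post-caerulein 04, a library of the smaller block, against 749 CPM or more in post-caerulein 01 to 03. Slurp1 was at 0.477 CPM in post-caerulein 01, with 17 reads, against 0.0843 CPM in the nearest post-caerulein library, with 4 reads. The gene 2010109I03Rik was at 146 CPM in post-caerulein 01, with the nearest library at 57.8 CPM.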

How the results depend on the processing

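The fit on group alone called 0 genes, but 23 with no filter, 509 with DESeq2, 343 with a likelihood ratio test, 2247 in the larger block alone and 0 to 1149 with 1 library left out, most of them without untreated 03 (without post-caerulein 04 it called 57). The fit with the library block called 251 genes, and 602 with no filter, 138 with at least 50 counts in 3 libraries, 1389 with DESeq2, 1227 with a likelihood ratio test, 2247 in the larger block alone, 0 with like pairs summed and 0 to 2267 with 1 library left out. It called 0 without untreated 01 or without untreated 02, 131, 29 and 3 without post-caerulein 01, 02 and 03, and 2267 and 2086 without untreated 03 and post-caerulein 04, where only the larger block still compares the groups. Of the genes on the lists other than members and cell type markers it called 3 (Lypd8, Rsad2 and Oas3), and 8 with no filter, 30 with DESeq2, 13 with limma-voom, 27 with a likelihood ratio test, 5 without robust estimation, 33 in the larger block alone, 0 with like pairs summed and 0 to 33 with 1 library left out. The cause was not tested.

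The replicate numbers do not mark shared animals or days in the labels. Deviations from the group means correlated across genes at 0.36, 0.14 and -0.20 between same-numbered libraries, so the numbers were not taken to pair them, and untreated 03 correlated better with post-caerulein 04 (0.55) than with its own number. With the replicate number as a block the fit on group alone called 0 genes. The fit with both the replicate number and the library block called 1184 genes and 25 of these list genes. Ly6a was not called in it (log2 difference -0.63, adjusted p = 0.0701 by edgeR's quasi-likelihood test). In that fit the terms take up untreated 03 and post-caerulein 03 and 04. Only untreated 01 and 02 and post-caerulein 01 and 02 then compare the groups, so its calls do not rest on all 7 libraries. Over the 18 alternatives the log2 difference of BC025446 stayed between 1.88 and 2.64 with the library block and was called in 9, and that of Ly6a stayed between -0.69 and -0.62 and was called in 12. Genes at a few reads, Ly6c2, Ly6h and Slurp1 among them, are limited by depth.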
